A study of Solanum lycopersicum with 18 samples.

Results

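Described here are the tomato leaf genes whose transcript level rose after 1 h of heat stress (HS) in both lines labelled as hsfa1a knock-downs while it moved little in wild type (WT). They were chosen by measured values. Counts were scaled by the column total to CPM, the counts a gene would have if its library totalled 1e6, the 3 libraries of a condition were averaged, and 1 was added before taking log2. A member had at least 50 counts in at least 2 libraries, a WT difference between 1 h and 0 h under 0.5 in size, a rise of at least 0.8 in CS2 and in CS3, and a 1 h level at least 0.5 above WT in both lines, all on this log2 scale. The rule found 126 members among 15312 genes with enough counts (0.823%), of 35821 genes in the table.

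Heat stress factors of class A bind short repeated elements in promoters and switch on chaperone genes when proteins unfold, and in tomato HSFA1a is known as a master regulator of this response. Genes outside the chaperone programme also change within the first hour of heat. Among them are transcription factors of the auxin, ethylene and growth pathways, cell wall proteins, and genes of the chloroplast.

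RNA came from leaves, the fourth of each plant, of cultivar Moneymaker at 4 weeks of age, grown in soil at 24 °C with 16 h of light. WT and 2 transgenic lines, CS2 and CS3, each carrying a hairpin RNA construct against HSFA1a, were sampled without heat (0 h) or after 1 h at 45 °C, with 3 libraries for each of the 6 conditions. The seedlings of a replicate were pooled, and both lines are described as independent. The names CS2 and CS3 are those of the count table, and no source used here pairs them with the names line1 and line2.

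Total counts were between 1713285 and 3669618 per library, the highest being CS2 replicate 3 at 1 h. The 11 tested chlorophyll a-b binding protein genes with a symbol, which mark photosynthetic leaf tissue, had between 123 and 639 CPM in every library. HSFA1a (Solyc08g005170.3) went against the labels: it had 67.6 to 87.0 CPM in WT and 65.6 to 96.3 CPM in the lines at 0 h, and 58.9 to 72.3 CPM in WT against 75.9 to 125 CPM in the lines at 1 h. No drop was therefore seen in the libraries with the labels CS2 or CS3, and reads of the hairpin cannot be told apart from reads of the native transcript. The paper itself reports that the construct lowers HSFA1a expression and that the knock-down plants grew poorly under heat. Every direction given below is between libraries as labelled. Genes that rose by at least 2 on the log2 scale in WT, 366 in number and none of them members, had median rises of 2.78 to 2.98 in the WT libraries, 2.52 to 2.68 in CS3 and 1.72 to 2.36 in CS2. In bulk leaf RNA, more RNA per cell and more cells of a type cannot be told apart.

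The median member rose by 1.38 in CS2 and by 1.18 in CS3 on the log2(CPM + 1) scale, against 0.18 in WT, while the median over all tested genes was -0.18, -0.17 and -0.13. At 1 h the median member lay 1.16 above WT in CS2 and 1.01 above WT in CS3. These values chose the members and are a description. The rises spanned 0.81 to 4.23 in CS2 and 0.80 to 3.15 in CS3, with lower quartiles of 1.11 and 0.97 and upper quartiles of 1.68 and 1.48. The smaller of the rises in CS2 and CS3, minus that of WT, is called the excess here. It was at least 2 in 8 members, from 1 to 2 in 57 and under 1 in 61, with a median of 1.04.

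**Figure D1:**
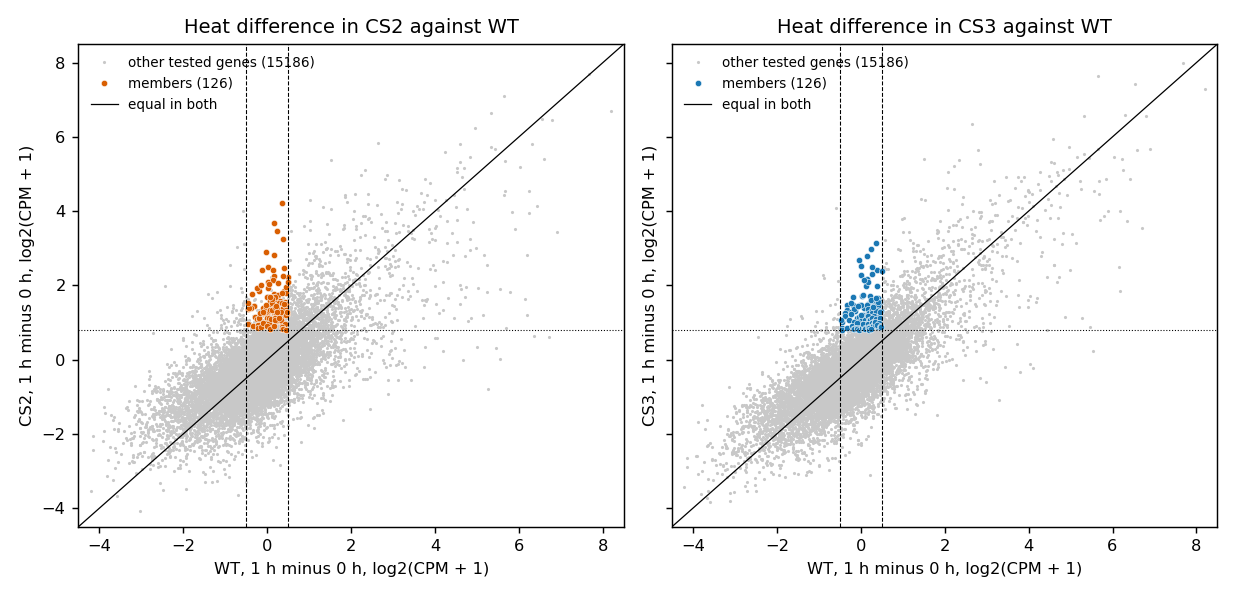
Heat difference (1 h minus 0 h, log2(CPM + 1), means of 3 libraries) of every tested gene in WT on the horizontal axis against CS2 (left) or CS3 (right) on the vertical axis. The 126 members (coloured) lie between the dashed WT limits and above the dotted line limit because the rule placed them there, with the highest at 4.23 in CS2 and 3.15 in CS3.

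The WT limit does not mark a gap in the data. Genes that met every condition on the lines numbered 356, and they ran on across the WT limits. Of these, 21 fell by 0.5 or more in WT, 126 are the members, 81 rose by 0.5 to 1 and 128 rose by 1 or more. Within the members the WT difference was above 0 in 91 and below 0 in 35. In the fit of all libraries with edgeR, which scales by TMM, 24 of the 126 members were called higher at 1 h in WT (adjusted p under 0.05, against 24.2% of tested genes), so the idea of induction in the lines alone does not hold for those. AGP-1, TCP6 and ccs52A, described below, are among them. Under TMM scaling the median WT difference of all tested genes moved from -0.13 to 0.01, and a gene's WT difference moves with it.

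The genes closest to a limit were these. Inside were Solyc05g054540.4, with a rise of 0.80 in CS3, and the ethylene response factor gene ERF-B13, with a WT difference of 0.50. Outside were Solyc01g081450.3, with a WT difference of 0.50, and Solyc07g042190.3, with a rise of 0.80 in CS3. Rounded like this, the values inside and outside are the same.

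The fit called 125 of 126 members higher at 1 h in CS2 (28.7% of tested genes were) and 125 in CS3 (26.7%). Against WT at 1 h it called 120 members higher in CS2 (17.8%) and 107 in CS3 (11.9%). The heat response was called larger than that of WT for 103 members in CS2 (10.4%) and for 76 in CS3 (4.96%). All these contrasts entered the rule, so the counts show only how firmly single members were measured. In 115 members all 6 line libraries at 1 h lay above all 3 WT libraries (15.2% of tested genes did so), and in the other 11, ndhD among them, the libraries overlapped. The 3 libraries of CS2 at 1 h lay above its 3 at 0 h in 121 members (23.2% of tested genes) and those of CS3 in 120 (21%).

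At 0 h the fit called 0 members between CS2 and WT (0.0522% of tested genes were called) and 0 between CS3 and WT (0.229%), with 1 member for CS2 (0.794%, against 3.51% of tested genes) and 18 for CS3 (14.3%, against 12.9%) at an unadjusted p under 0.05. The median difference from WT at 0 h was -0.03 in CS2 and -0.05 in CS3, and 102 members lay within 0.5 of WT in both lines. The quartiles were -0.20 and 0.06 in CS2, against -0.09 and 0.13 over all tested genes. In CS3 they were -0.30 and 0.17, against -0.15 and 0.19. Both lines were above WT in 35 members, which like the 102 was not counted over all tested genes. Both were below WT in 50 members (39.7%, against 25.8% of tested genes). A low level at 0 h in the lines adds to the rise that the rule asks for, so this share is a description as well.

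Members are named through RefSeq. The table gives identifiers without names, and positions along the chromosomes were matched to the RefSeq annotation of the assembly SLM_r2.1, which gave a counterpart for 78 members and a descriptive symbol for 9. For the plastid gene ndhD the identifier is the RefSeq locus tag itself. All 10 are given below, by role, with the plot of their CPM by library. Names by position were not checked by sequence, and for TCP6 the gene of the table had 0.534 of the length of the RefSeq gene. The remaining 116 members carry an identifier only.

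IAA2 (Solyc06g084070.3, chromosome 6, 51892726 to 51893599, plus strand, M82 assembly) encodes an Aux/IAA protein, a short-lived repressor of auxin-responsive transcription. It had 14.7, 9.36 and 14.9 CPM in WT at 0 h, and 20.1, 13.5 and 13.8 CPM in WT at 1 h. In CS2 it went from 12.9, 12.1 and 20.5 CPM to 67.1, 68.4 and 65.7 CPM, and in CS3 from 15.3, 6.88 and 14.1 CPM to 67.3, 74.2 and 75.4 CPM. All 6 heated line libraries were thus at about the same level, above every other library. The means changed 4.42-fold in CS2, 5.98-fold in CS3 and 1.21-fold in WT. CS3 and CS2 differed at 1 h by 0.10 on the log2 scale (SE 0.214, edgeR adjusted p = 0.858).

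TCP6 (Solyc06g069460.3, chromosome 6, 45789284 to 45790120, minus strand) encodes a transcription factor of the TCP family, whose members control cell proliferation and organ growth. Its 9 libraries at 0 h lay between 8.22 and 12.7 CPM. At 1 h it had 13.4, 16.3 and 14.6 CPM in WT, while CS2 had 68.9, 63.5 and 64.3 CPM and CS3 had 42.3, 34.0 and 42.0 CPM. The 3 genotypes did not overlap at 1 h, with CS2 highest and WT lowest. The step between the lines was tested: CS3 was lower than CS2 by 0.73 on the log2 scale (SE 0.155, edgeR adjusted p = 0.0155). The call held in 16 of 20 settings and was lost without replicate 2 or 3 of either line at 1 h, with an edgeR adjusted p of up to 0.111.

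ERF-B13 (Solyc08g078190.2, chromosome 8, 62853291 to 62854258, plus strand) encodes a DNA-binding factor of the ethylene response factor family. Its counts were low, with 1.70 to 5.13 CPM in the 9 libraries at 0 h. At 1 h it had 1.92, 8.38 and 3.34 CPM in WT, while CS2 had 18.1, 23.4 and 22.1 CPM and CS3 had 22.1, 17.9 and 30.8 CPM. Every heated line library was above every WT library, and WT itself was spread widely. Of 28 other settings of the rule ERF-B13 met 20, since its WT difference sat at the limit.

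GLK2 (Solyc10g008160.3, chromosome 10, 2290017 to 2294754, plus strand) encodes a GOLDEN2-like factor that promotes chloroplast development and is known in tomato for the green shoulder of the unripe fruit. In WT it had 48.6, 54.7 and 52.7 CPM at 0 h and 57.0, 36.8 and 52.2 CPM at 1 h. In CS2 it went from 43.4, 56.8 and 56.8 CPM to 65.4, 121 and 129 CPM, and in CS3 from 42.8, 32.6 and 44.8 CPM to 73.6, 63.6 and 80.1 CPM. The first CS2 library at 1 h lay among the CS3 libraries, and the others were far above them. The smallest heated line value, 63.6 CPM, was close to the largest WT value, 57.0 CPM. GLK2 did not meet the rule without CS3 replicate 2 at 0 h, or without WT replicate 2 or CS3 replicate 3 at 1 h. The difference between CS3 and CS2 did not pass the test at 1 h (log2 difference -0.54, SE 0.194, edgeR adjusted p = 0.154).

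TDR6, also called TM6 (Solyc02g084630.3, chromosome 2, 47415565 to 47419336, minus strand), encodes a MADS-box factor known for petal and stamen identity in flowers. In these leaves it had 22.0 to 25.2 CPM in WT at 0 h. At 1 h it had 35.4, 23.3 and 30.9 CPM in WT, while CS2 had 38.5, 45.5 and 51.8 CPM and CS3 had 39.9, 44.1 and 45.8 CPM. At 1 h the lines lay just above WT without overlap, and CS3 lay inside the range of CS2. The rise in CS3 was counted from 17.3, 8.69 and 20.8 CPM at 0 h, below all WT libraries. TDR6 no longer met the rule without WT replicate 2, CS2 replicate 3 or CS3 replicate 3 at 1 h.

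**Figure D2:**
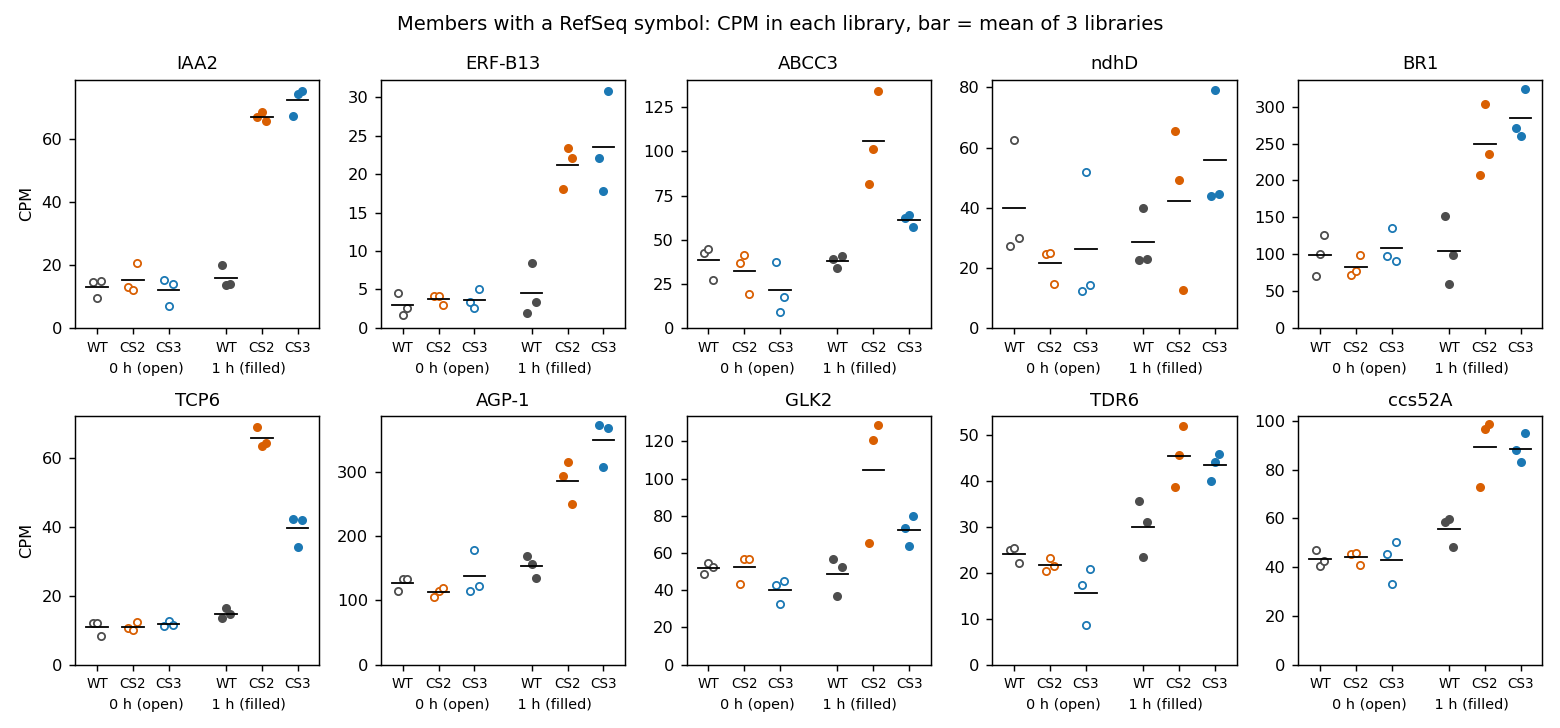
CPM (vertical axis, from 0) of the 10 members with a symbol in each of the 18 libraries, by genotype, at 0 h (open points) and 1 h (filled points), with a bar at the mean of 3 libraries. In IAA2 and ERF-B13 both lines stood at one level at 1 h, in TCP6 CS2 (63.5 to 68.9 CPM) stood above CS3 (34.0 to 42.3 CPM), and in ndhD the groups overlapped.

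ccs52A (Solyc08g080080.4, chromosome 8, 64234062 to 64238281, plus strand) encodes an activator of the anaphase-promoting complex, needed for endoreduplication. It had 33.3 to 50.3 CPM in the 9 libraries at 0 h. At 1 h it had 58.4, 59.6 and 48.5 CPM in WT, while CS2 had 73.0, 96.8 and 98.6 CPM and CS3 had 88.0, 83.1 and 95.1 CPM. The heated lines were 2.03-fold and 2.06-fold above their 0 h means, and WT was 1.28-fold above its own.

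AGP-1 (Solyc02g092790.3, chromosome 2, 53486922 to 53489184, plus strand) encodes an arabinogalactan protein, a glycoprotein of the cell wall and plasma membrane. In WT it had 115, 134 and 133 CPM at 0 h and 169, 157 and 135 CPM at 1 h. At 1 h CS2 had 294, 316 and 251 CPM and CS3 had 374, 308 and 369 CPM, all above WT. The rise in both lines was 1.33 on the log2 scale, against 0.27 in WT.

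ABCC3 (Solyc03g117540.4, chromosome 3, 62703027 to 62723561, plus strand) encodes an ABC transporter of subfamily C, a family that carries conjugated compounds into the vacuole. In WT it had 42.6, 44.8 and 27.3 CPM at 0 h and 38.8, 34.0 and 40.5 CPM at 1 h. At 1 h it had 81.7, 101 and 134 CPM in CS2, up from 36.5, 41.3 and 19.3 CPM, and in CS3 it reached 62.0, 64.2 and 57.0 CPM, up from 37.4, 9.05 and 17.6 CPM. The libraries of all 3 genotypes overlapped at 0 h, and at 1 h each stood apart, with CS2 highest. The 0 h values of 19.3 CPM in CS2 and of 9.05 and 17.6 CPM in CS3 lay below every WT library. Such low values add to the rise of a line. The difference between CS3 and CS2 at 1 h did not pass the test (log2 difference -0.81, SE 0.303, edgeR adjusted p = 0.179). It met all 28 other settings of the rule. BR1 (Solyc09g092520.3, chromosome 9, 67963868 to 67965960, minus strand) met them too, with 60.1 to 152 CPM in WT, 207 to 303 CPM in CS2 and 261 to 323 CPM in CS3 at 1 h.

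ndhD (plastid chromosome, 116941 to 118443, minus strand) encodes a membrane subunit of the chloroplast NADH dehydrogenase-like complex, which carries electrons around photosystem I. It was the least firm of the 10. In WT it had 27.2, 62.4 and 29.9 CPM at 0 h and 22.5, 40.0 and 23.0 CPM at 1 h. In CS2 it went from 24.7, 25.1 and 14.6 CPM to 65.4, 49.1 and 12.5 CPM, and in CS3 from 12.2, 51.8 and 14.4 CPM to 43.8, 79.2 and 44.5 CPM. CS2 replicate 3 at 1 h was the lowest of the 9 heated libraries and CS3 replicate 2 at 0 h the highest of the lines at 0 h, and ndhD met only 13 of 28 other settings.

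Other plastid genes were looked at after these values were seen, so they are described without a test. Of 38 tested plastid genes, 36 had a larger heat difference in both lines than in WT. The medians were 0.01 in WT, 0.93 in CS2 and 0.71 in CS3. The median excess was 0.78, against -0.10 over all tested genes, whose upper quartile was 0.20. A lower level of a line at 0 h enlarges the heat difference just as a higher level at 1 h does. ndhD was the one that met the rule. It is the last gene of a run on the same strand with psaC, ndhE, ndhG, ndhI, ndhA and ndhH, in which psaC encodes an iron-sulfur subunit of photosystem I and the others encode subunits of the same dehydrogenase. In this run the heat difference of ndhH was -0.95 in WT, 0.57 in CS2 and 0.79 in CS3, and that of psaC was 0.50 in WT, 1.43 in CS2 and 1.36 in CS3.

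The level of plastid RNA differed between libraries. At 0 h plastid genes took 0.209% to 0.278% of the counts in WT and 0.152% to 0.184% in CS2. The CS3 libraries at 0 h had 0.145%, 0.353% and 0.167%. All line libraries at 0 h but CS3 replicate 2 were thus below every WT library at 0 h, which adds to their heat difference. At 1 h the shares were 0.236% to 0.291% in WT, 0.306% to 0.429% in CS3, and 0.419%, 0.322% and 0.135% in the 3 CS2 libraries. CS2 replicate 3 at 1 h was thus the lowest of all libraries and the deepest. ndhD met the rule without this library, and did not without any one of 11 others.

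**Figure D3:**
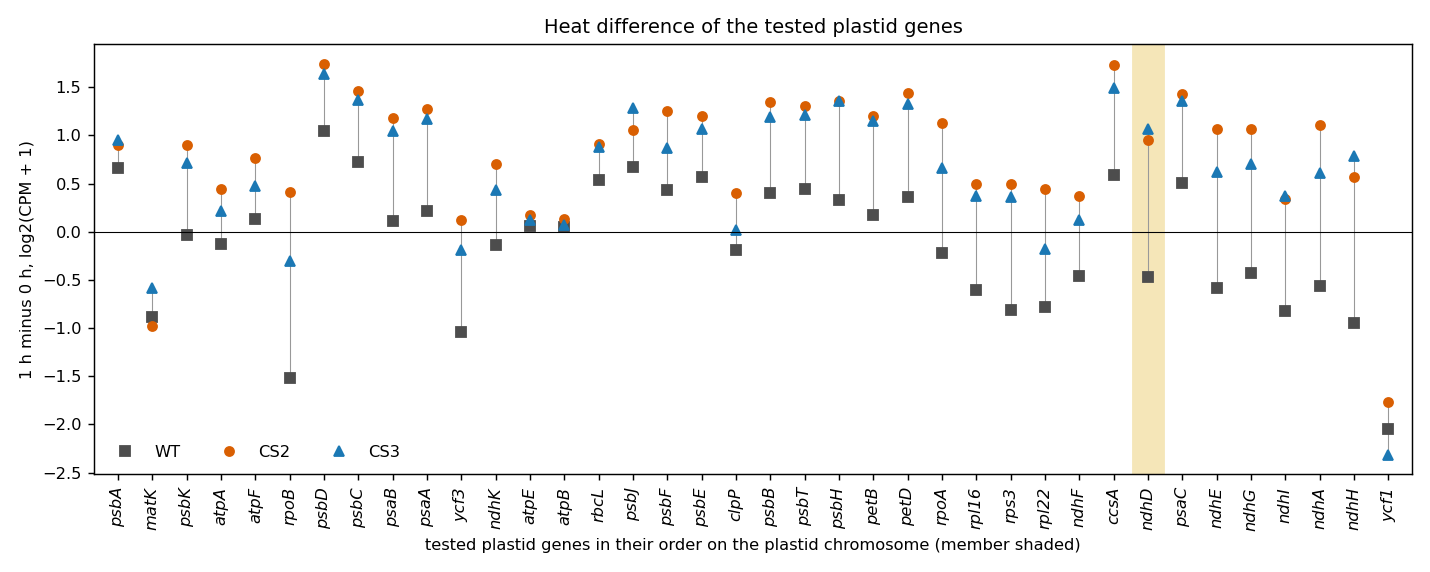
Heat difference (1 h minus 0 h, log2(CPM + 1), means of 3 libraries) of the 38 tested plastid genes in WT (squares), CS2 (circles) and CS3 (triangles), in their order on the plastid chromosome, with ndhD shaded. In 36 of them both lines lie above WT; matK and ycf1 are the exceptions.

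Genes of the same families as the named members were drawn by symbol, 976 tested nuclear genes having one, of which 9 are members. In 4.11% of all tested genes the heat response was called larger than that of WT in both lines, and in 4.3% it was called smaller. Of 13 tested Aux/IAA genes, IAA2 was the member and IAA8 the other one called larger in both lines. Of 7 tested TCP genes these were TCP6 and TCP20, and of 13 ethylene response factor genes ERF-B13 and ERF36. ERF-D3, picked here for its values, rose by 2.34 in WT, 5.11 in CS2 and 5.37 in CS3. Its heat response against that of WT was not called (edgeR adjusted p = 0.436 in CS2 and 0.312 in CS3). It had 0 to 1.65 CPM at 0 h, and at 1 h 4.18 to 6.71 CPM in WT and 43.8 to 77.0 CPM in the lines. The median excess, with the member included, was 0.02 in the Aux/IAA genes, 0.02 in the TCP genes and 0.10 in the ethylene response factors, against -0.10 over all tested genes. The families were drawn because they hold a member, and the rule chose that member for its larger response. Only IAA8, TCP20 and ERF36 are thus calls that the rule did not pick.

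TCP20, IAA8 and ERF36 did not meet the rule, as all had a WT difference outside the limit (-0.90, -1.60 and 0.82). TCP20 also rose by less than 0.8 in both lines, and IAA8 fell in both. TCP20 (Solyc08g080150.1) had 32.5 to 48.6 CPM at 0 h and 16.8 to 28.4 CPM at 1 h in WT, and 48.5 to 67.8 CPM in the 6 heated line libraries. It fell in WT, and its heat response was larger than that of WT by 1.72 in CS2 (SE 0.338, edgeR adjusted p = 0.00179) and by 1.57 in CS3 (SE 0.341, adjusted p = 0.00692). IAA8 (Solyc12g007230.2) went from 47.6 to 54.4 CPM down to 12.5 to 19.1 CPM in WT, and to 24.0 to 38.6 CPM in the lines. It fell less in the lines, by a difference of 1.13 in CS2 (SE 0.229, edgeR adjusted p = 0.00229) and 0.82 in CS3 (SE 0.233, adjusted p = 0.0301). ERF36 (Solyc10g006130.1) rose in WT from 36.3 to 52.5 CPM up to 71.9 to 84.8 CPM, and to 98.9 to 158 CPM in the lines, which is a larger rise by 0.73 in CS2 (SE 0.231, edgeR adjusted p = 0.0326) and 0.97 in CS3 (SE 0.231, adjusted p = 0.0121).

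The calls of TCP20 held in both lines under 22 other settings. IAA8 lost its call in CS3 when scaled by library size alone, and without WT replicate 1 or 3 at 0 h, WT replicate 1 or 3 at 1 h or CS3 replicate 3 at 1 h, with an adjusted p from edgeR of up to 0.11. ERF36 lost its call in CS2 without WT replicate 1 or 3 or CS2 replicate 1 or 2 at 0 h, or without WT replicate 3 or CS2 replicate 1 or 2 at 1 h, with an adjusted p from edgeR of up to 0.0999.

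No heat shock gene was found among the members with a symbol, and the 116 without one could not be looked up. None of 27 tested genes with the symbol of a heat shock protein, a DnaJ protein or an FKBP immunophilin met the rule. Nor did HSFA1a and HSTF24, the 2 heat stress factors with a symbol. The median heat difference of the 27 was 0.44 in WT, 0.60 in CS2 and 0.52 in CS3. Most of the 27 are FKBP immunophilins, so these medians do not describe the heat shock proteins. A gene that moved by 0.5 or more in WT could not be a member, so strongly heat-induced genes were shut out in advance. HSP100/CLPB (3.14 in WT) and HSTF24 (3.68) were such genes, while HSFA1a (-0.20) was not. HSP100/CLPB rose by 1.90 in CS2 and 2.93 in CS3, and HSTF24 by 1.60 and 3.48. HSP17-6, HSP17.8 and Hsp20.0 also rose strongly in WT and less in CS2, while HSP17.4 rose about as much in CS2 as in WT. There was 1 member among 40 ABC family genes, ABCC3, and there was none among 24 cell wall enzymes, 22 protein kinases, 20 cytochrome P450 genes, 14 chlorophyll-binding and photosystem genes, 12 auxin response factors, 10 ubiquitin conjugation genes and 8 calcium sensors. There was likewise none among 7 WRKY, 5 NAC and 2 MYB factors, 5 glutathione transferase, peroxidase and thioredoxin genes, 4 ribosomal protein genes and 2 JAZ genes. Members were 0.823% of all tested genes and 9 of 976 with a symbol. At that share most lists of this size would hold none, so these counts say little about the families. Outside the members, the heat response was called larger in both lines in 3 cell wall enzymes, 1 kinase, 1 calcium sensor, 1 cytochrome P450, 1 NAC factor and 1 ABC gene. It was called smaller in both in 2 kinases, 2 ABC genes, 1 calcium sensor and 1 cytochrome P450.

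The largest excess, 2.79, belonged to Solyc02g086570.3 (chromosome 2, 48934946 to 48937129, plus strand), which has no name here and was picked for its value. It had 0.827 to 3.40 CPM in all 9 libraries at 0 h and 1.92, 6.05 and 3.76 CPM in WT at 1 h. At 1 h it had 43.8, 43.2 and 59.7 CPM in CS2, whereas CS3 had 39.4, 16.2 and 25.7 CPM. All 6 heated line libraries were above the rest, and the mean rose 29.3-fold in CS2 and 12.5-fold in CS3.

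CS2 and CS3 enter the rule alike, so the difference between them was tested. The members were still chosen by the same 1 h values, as lying above WT. Over all tested genes more were called above WT at 1 h in CS2 (17.8%) than in CS3 (11.9%). A lean of the members towards CS2 is therefore not shown to be particular to them. At 1 h edgeR called 7 of 126 members, all lower in CS3, against 2.35% of tested genes called in either direction and 1.04% called lower. At an unadjusted p under 0.05 there were 38 members (30.2%, against 16.5% of tested genes), 30 of them lower in CS3 (23.8%, against 9.37%). CS2 had the higher mean in 93 of 126 members at 1 h, a count not taken over all tested genes. The median difference was -0.18 on the log2 scale, against -0.02 over all tested genes.

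The largest called difference was that of Solyc07g047823.1 (chromosome 7, 59260453 to 59264992, plus strand). It had 26.8, 23.0 and 40.3 CPM in CS2 at 1 h, whereas CS3 had 11.1, 16.2 and 14.1 CPM, with 7.92 to 10.5 CPM in WT. CS3 stood just above WT and CS2 well above both, a log2 difference of -1.14 between the lines (SE 0.249, edgeR adjusted p = 0.0186). This call was lost without CS2 replicate 3 or any one CS3 replicate at 1 h, with an edgeR adjusted p of up to 0.17. The next was Solyc02g091660.3 (chromosome 2, 52631835 to 52634226, minus strand), with 282, 288 and 266 CPM in CS2, 199.5, 112 and 159.8 CPM in CS3, and 29.8 to 41.2 CPM in WT. Both lines were far above WT there, and CS3 was below CS2 by a log2 difference of -0.83 (SE 0.198, edgeR adjusted p = 0.0312). This call was lost without CS3 replicate 2 or 3 or any one CS2 replicate at 1 h, and with only the libraries of the lines, with an edgeR adjusted p of up to 0.182. The remaining 5, TCP6 among them, had log2 differences of -0.67 to -0.78.

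These calls depended on single libraries. The count of 7 became 2 without CS3 replicate 2 at 1 h, 3 without CS3 replicate 3, CS2 replicate 2 or CS2 replicate 3 at 1 h, 11 without CS2 replicate 1 at 1 h and 13 without CS3 replicate 2 at 0 h. In the last of these 2 members, and without CS2 replicate 1 at 1 h 3 members, were called higher in CS3. Solyc05g054540.4 and Solyc03g119700.3 were called under all 20 settings, with 59.7 to 76.9 CPM in CS3 against 96.9 to 123 CPM in CS2 for the first, and 216 to 273 CPM against 377 to 419.6 CPM for the second. At 0 h edgeR called 0 members between the lines (0.0261% of tested genes), with 7 at an unadjusted p under 0.05 (5.56%, against 11.1% of tested genes) and 0 by DESeq2. The heat response of CS3 against that of CS2 gave 0 members as well (0.104% of tested genes), with 16 at an unadjusted p under 0.05 (12.7%, against 7.86%), all smaller in CS3, and 0 by DESeq2.

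**Figure D4:**
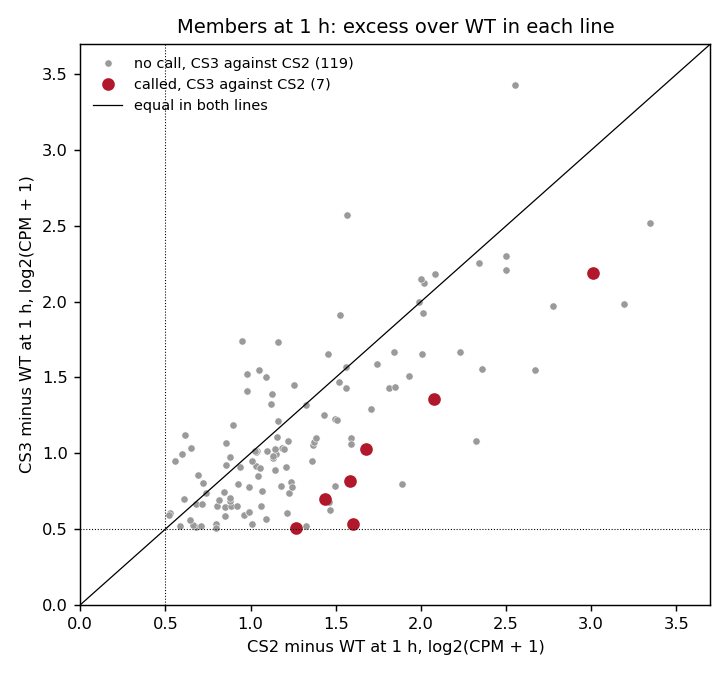
Level at 1 h minus that of WT (log2(CPM + 1), means of 3 libraries) in CS2 (horizontal axis) and CS3 (vertical axis) for the 126 members. The dotted lines are the rule's limits of 0.5, and the 7 members called between the lines by edgeR (large points) all lie below the line of equal values.

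The heated libraries of a line were not alike over the members. The median member rose by 1.26, 1.36 and 1.40 in the CS2 libraries and by 1.14, 1.01 and 1.32 in the CS3 libraries, relative to the 0 h mean of the line, against 0.24, 0.19 and 0.08 in the WT libraries. CS3 replicate 3 was the highest of its condition in 71 members and CS3 replicate 2 the lowest in 75. In this median all 6 line libraries lay above the 3 WT libraries, which the rule's limits nearly fixed in advance. CS2 replicate 1, with the fewest counts of all libraries, was the lowest of its condition in 73.

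Members had short spans. The median length from start to end of the gene, introns included, was 2267 bases, against 4220 over all tested genes, and the median level at 0 h was 21.05 CPM against 45.9 CPM. Reads were counted after removal of duplicates. The highest count reached at least 0.3 of the span in 29 members (23.0%) against 6.98% of tested genes, and at most 0.546. Whether duplicate removal lowered the rises of these members was not tested.

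Members lay on all 12 chromosomes. Chromosomes 1, 2, 3 and 6 held 75 of them (59.5%), against 42.7% of tested genes, with 22 on chromosome 2 alone (17.5% against 10.6%). There were 10 pairs of members within 100 kb of each other. One group on chromosome 2 held 3 members on the minus strand, Solyc02g091660.3, Solyc02g091670.1 and Solyc02g091700.3, separated by 3669 and 25547 bases. Their excess was 2.04, 1.11 and 2.28, so the middle gene rose less than its neighbours. It had 56.6 to 61.0 CPM in CS2 and 58.6 to 89.5 CPM in CS3 at 1 h, against 17.7 to 31.6 CPM in WT.

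The closest pair was Solyc04g011610.3 and Solyc04g011615.1 on chromosome 4, on the same strand and 151 bases apart. Their rises were 1.22 and 1.08 in CS2 and 1.06 and 1.13 in CS3, close to each other in both lines. Whether reads of the first are counted on the second was not tested. Among 14 members with a gene on the same strand less than 1 kb upstream (11.1%, against 9.77% of tested genes), that neighbour was tested in 11, and in 3 of these it rose by at least 0.8 in both lines.

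Neighbours in general did not move with the members. The 244 tested genes directly beside a member, and not members themselves, had a median excess of -0.05, against -0.10 over all tested genes. A pair of members lay near HSFA1a on chromosome 8, Solyc08g005100.3 at 38597 bases and Solyc08g005130.1 at 26591 bases from it. At 1 h the first had 47.9 to 56.7 CPM in CS2 and 29.0 to 42.8 CPM in CS3, against 18.2 to 24.2 CPM in WT. The second had 41.4 to 69.5 CPM in CS2 and 43.0 to 64.9 CPM in CS3, against 24.2 to 33.5 CPM in WT, without overlap between lines and WT.

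The number of members moved with the settings of the rule. It was 175 with TMM library sizes, 155 with upper-quartile factors and 170 with DESeq2 size factors, of which 104, 122 and 105 are among the 126. A pseudocount of 5 in place of 1 gave 122 genes and kept 93 of the members. With one library left out the count lay between 105 and 146, and 103 to 124 of the 126 were kept. In each of these settings the excess stayed above 0 for all 126 members, which the choice of members favours.

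**Figure D5:**
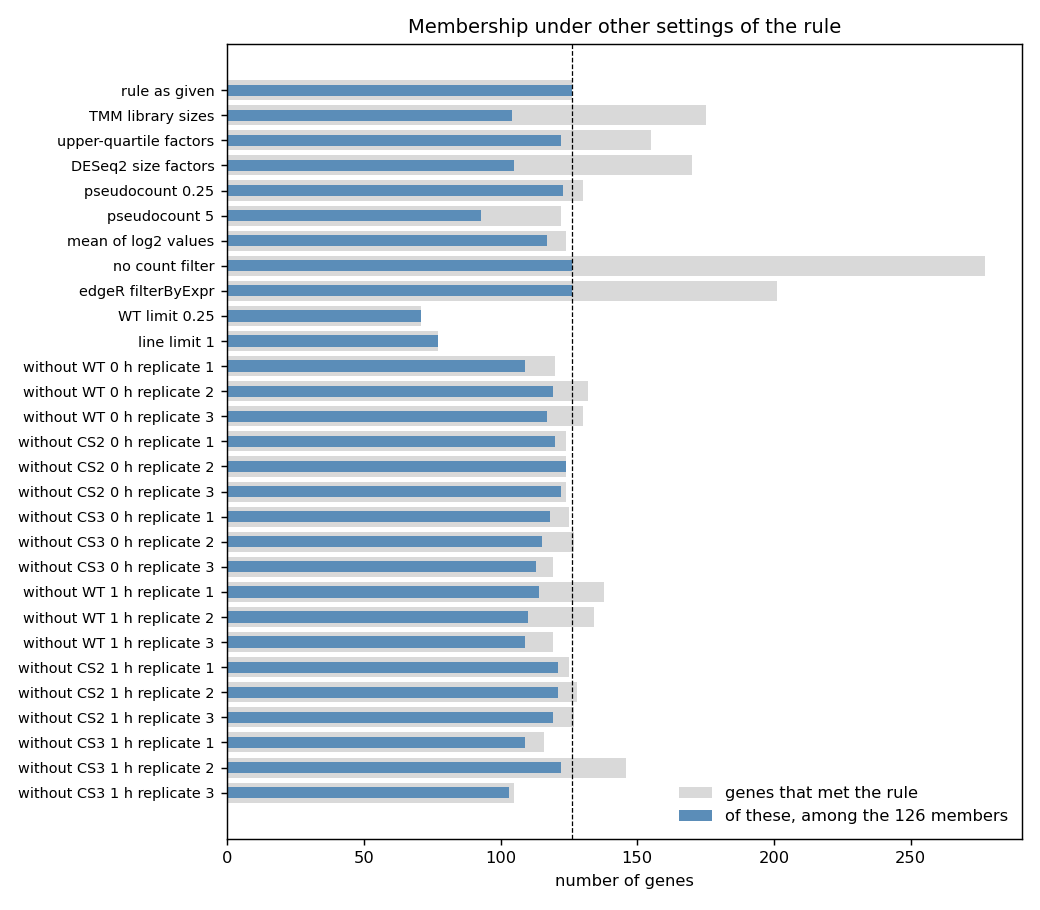
Number of genes (horizontal axis, from 0) that met the rule under each other setting (grey bars) and how many of these are among the 126 members (blue bars), with a dashed line at 126. Scaling by TMM added more genes (175 in all) than it removed, and leaving out CS3 replicate 3 at 1 h gave the fewest of the settings that leave out a library, 105.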

How the data were processed

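The authors trimmed single-end reads of 75 bases with Trimmomatic (version 0.38), mapped them on the M82 genome and, after dropping reads of mapping quality below 30 and PCR duplicates, counted them by strand over whole gene spans with featureCounts (version 2.0.0). The methods name STAR as aligner and the submitters' processing notes Bowtie2 (version 2.3.5). The deposited values are raw counts per gene, and the header of the table records that reads with several alignments and reads on overlapping genes were counted. Near-identical copies are therefore uncertain.

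The members, the gene lists and the tests were chosen with earlier results of these data known. The lists, first planned by product names, were drawn by RefSeq symbol, since the RefSeq table used here holds no products. Levels are CPM by column total. Tests used edgeR's quasi-likelihood test (version 4.0.16, R 4.3.3, limma 3.58.1) with TMM, 6 conditions and all 18 libraries in one fit, Benjamini-Hochberg adjustment over 15312 genes and a threshold of 0.05. The difference between a line's heat response and that of WT is an interaction in this fit. Fold changes of the tests are on the edgeR log2 scale.

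Gene positions were matched where at least 8 neighbours within 100 kb fitted within 1500 bases, and genes between such matches by overlap, for 15709 genes (43.9%). A symbol was taken where spans agreed to at least 0.5. Of 140 plastid genes, 140 had the same start and end in RefSeq. Named are the members with a symbol, the genes nearest the limits, and the largest called differences between the lines. Others were named after their values were seen.

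On simulated counts for CS3 against CS2 at 1 h, 13696 genes passed the count filter, and of these 95 of 96 changed 4-fold, 72 of 94 changed 2-fold and 9 of 13506 unchanged ones were called. The main fit did not pair libraries by replicate number. The methods describe biological replicates as independent, but state fewer per condition than the table holds, so part of the spread that p-values measure may be technical. Alternatives were DESeq2 (version 1.42.0), other scalings, pseudocounts, filters and limits, only the libraries of the lines, the replicate number as a block, and each library left out in turn. No column of other samples was present. No promoter or protein sequence was used.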

Additional observations from a re-analysis of the deposited data

Results flagged for a closer look

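The level at 1 h differed between the lines in 7 members by edgeR's test of CS3 against CS2 (adjusted p under 0.05), all lower in CS3. The log2 differences were -1.14 in Solyc07g047823.1, -0.83 in Solyc02g091660.3, -0.78 in Solyc06g068630.4, -0.76 in Solyc03g119700.3, -0.75 in Solyc05g054540.4, -0.73 in TCP6 (Solyc06g069460.3) and -0.67 in Solyc03g113520.3. The 10 members with a symbol and HSFA1a were also searched for a library far from the other 5 of its group of 6 line libraries. Of 22 such groups 3 had one, where chance gives about 1 in 20: CS3 replicate 2 at 0 h with 51.8 CPM of ndhD and 179 CPM of AGP-1, and CS3 replicate 1 at 0 h with 96.3 CPM of HSFA1a.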

How the results depend on the processing

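The count of 126 members became 277 with no count filter and 201 with edgeR's filterByExpr, both of which kept all 126, 71 with a WT limit of 0.25 and 77 with a rise of at least 1 in the lines. With each library left out in turn it was between 105 and 146. The other settings stayed within 1.5 times. The count of 7 members called between the lines at 1 h was between 2 and 13 with each library left out, 10 by DESeq2 and with no count filter (2 of these higher in CS3), and 5 with only the libraries of the lines. With the replicate number as a block it was 8, and 0 members were called at 0 h and 0 for the heat response, as under every other setting run. Whether replicate numbers pair the libraries was not settled. Correlations of the deviations of same-numbered libraries of CS2 and CS3 were -0.20 to 0.41, and those of differently numbered ones -0.40 to 0.19. The highest and the lowest were both at 0 h. The excess of the 10 members with a symbol was recomputed 280 times, moved by more than the spread of its libraries in 4 and turned in 0. Solyc07g047823.1 and Solyc02g091660.3 kept their direction in all settings and were called in 16 and 14 of 20. The settings tried for IAA8, TCP20 and ERF36 were chosen after seeing the data. With 3 libraries a condition and 1713285 to 3669618 counts each, small differences of genes with few counts are not detectable.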
